A study of Mus musculus with 16 samples.

Results

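The genes analysed here were 38 genes of the unfolded protein response of the endoplasmic reticulum (ER), of the integrated stress response, and of the cytosolic heat shock response, measured by bulk mRNA-Seq in mouse lung group 2 innate lymphoid cells (ILC2s). They were chosen by name, with no threshold on their values, out of 51912 genes in the count table, and all 38 were found there and passed the filter on low counts. They comprise 14 ER chaperones and folding enzymes, 6 sensors and transcription factors, 4 feedback genes and effectors of the integrated stress response, 8 genes of amino acid transport and of serine and one-carbon metabolism, and 6 cytosolic heat shock proteins. Lung ILC2s came from wild-type (WT) mice and from Pac1-/- mice on the C57BL/6J background, which carry a germline deletion of the phosphatase gene Dusp2 (Pac1) in all cells. Cells of each genotype were treated for 4 hours with IL-7 alone, with IL-7 plus the alarmin IL-33, with IL-7 plus IL-33 plus the neuropeptide CGRP, or with IL-7 plus IL-33 plus the neuropeptide NMU. All groups thus received IL-7, and the CGRP and NMU groups are named below by the neuropeptide alone. For ILC2 cultures the study's methods give 100 ng/mL of IL-7 and of IL-33, 500 ng/mL of CGRP and of NMU, and an expansion of 1 to 2 weeks in IL-2 and IL-7 before stimulation, and for mice in general an age of 6 to 8 weeks. Whether the sequenced cells were expanded in this way is not given in the sources used here. Each of the 8 groups thus formed held 2 libraries, 16 in all, made from about 500 sorted ILC2s apiece.

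In the unfolded protein response, the ER membrane sensors encoded by Ern1 (IRE1), Eif2ak3 (PERK), and Atf6 detect unfolded proteins in the ER lumen. IRE1 splices the Xbp1 mRNA, and the XBP1 and ATF6 proteins then raise the transcription of chaperones and of genes that degrade misfolded proteins. PERK and other kinases phosphorylate the translation factor eIF2α, which slows protein synthesis in general while it favours the translation of ATF4, the activator of amino acid transport and synthesis genes. ILC2s secrete large amounts of IL-5 and IL-13, which are folded in the ER, and HSF1 drives the separate cytosolic heat shock genes.

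Total gene counts ran from 6764992 to 15963357 across the libraries (median 11071278). Before any scaling, 3 counts thus equalled a floor of 0.188 to 0.443 counts per 1000000. Values in CPM below are counts per 1000000 scaled by edgeR's TMM factors (0.899 to 1.27), which also shift this floor. Molecular identifiers are not mentioned in the sources used here, so such a floor covers counting error only. All 13 ILC2 markers had counts in each of the 8 groups. Dusp2 was at 0 counts in all 8 Pac1-/- libraries, but also in 6 of 8 WT libraries, with 5.23 CPM in WT IL-7 replicate 2 and 4.46 CPM in WT NMU replicate 1, so it gives little check of the genotype labels. Markers of B cells summed to 134 to 166 CPM in the Pac1-/- CGRP libraries and to 0 to 30.8 CPM elsewhere. The WT NMU libraries held 171 to 308 CPM of 4 epithelial markers and 39.7 to 123 CPM of 5 macrophage and monocyte markers, against 11.2 to 83.3 and 1.19 to 15.96 CPM in the other groups, and most of the WT NMU sums came from Sftpc and Scgb1a1 and from Lyz2. Of 5 granulocyte and mast cell markers, Cpa3 was at 151 and 174 CPM in the WT CGRP libraries and at 26.3 to 83.9 CPM elsewhere, while the other 4 were at 0 counts in the WT CGRP libraries. Mitochondrial genes took 8.30% to 12.6% of counts with CGRP, 8.60% to 10.2% with IL-7, 3.94% to 7.96% with IL-33, and 3.32% to 5.54% with NMU, and ribosomal protein genes 10.2% to 13.6% with CGRP and 5.14% to 9.43% in the other libraries. The part of these markers and shares in the results below was not tested. Nothing in the labels says that the 2 libraries of a group came from separate mice or cultures, so P values measure the spread between these libraries, which may be technical. In such bulk libraries, fewer cells of a type and less RNA per cell cannot be told apart.

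Promoter sequences were read from RefSeq (GRCm38.p6, the build of the count files), as windows from 250 bases before to 50 bases after each RefSeq start. Gene positions given below are those of GENCODE M21, whose starts can differ from these. Windows were found for 33 of the 38 genes, 36 windows in all, and none was found for Atf6, Manf, Slc7a5, Hspa8, and Hsp90aa1. They were searched on both strands for 5 motifs, in which N stands for any base. The ER stress response element (ERSE, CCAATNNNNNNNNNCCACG) and its variant ERSE-II (ATTGG, any base, and CCACG) are known binding sequences of ATF6 and XBP1. The remaining motifs were the C/EBP-ATF response element bound by ATF4 (CARE, TGATGNAA), the cyclic AMP response element (CRE, TGACGTCA), and the heat shock element (HSE, GAANNTTCNNGAA). ERSE and ERSE-II end in the same CCACG, and in the windows of these genes no matches of different motifs overlapped. The 2 sequences shown first are the 250 bases before the start of Ppp1r15a, the gene with the smallest adjusted P value between CGRP and IL-33 among these genes, and of Herpud1, which held motifs of both the ER and the ATF4 type. Capitals mark the motif matches, on either strand, in all sequences shown here.
Ppp1r15a, chr7:45526269-45526518, minus strand: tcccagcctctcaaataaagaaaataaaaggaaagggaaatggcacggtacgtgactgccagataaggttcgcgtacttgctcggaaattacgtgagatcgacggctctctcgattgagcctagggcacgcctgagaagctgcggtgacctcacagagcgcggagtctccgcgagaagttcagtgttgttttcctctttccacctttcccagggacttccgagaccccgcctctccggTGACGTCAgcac
Herpud1, chr8:94386179-94386428, plus strand: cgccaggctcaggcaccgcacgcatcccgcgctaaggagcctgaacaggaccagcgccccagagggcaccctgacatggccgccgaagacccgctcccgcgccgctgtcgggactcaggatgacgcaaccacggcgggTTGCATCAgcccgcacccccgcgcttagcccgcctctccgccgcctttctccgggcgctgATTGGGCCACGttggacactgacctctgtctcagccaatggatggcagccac

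ERSE was found in 7 of the 33 genes with a window, all of them ER chaperones or folding enzymes. Of all 32851 promoter windows searched, which did not cover every chromosome, 0.119% held it. Their matched stretches, with 5 bases on either side, are shown because more of these genes shared ERSE than any other motif searched.
Hspa5, chr2:34772020-34772048, plus strand: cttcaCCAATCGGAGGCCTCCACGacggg
Hsp90b1, chr10:86705633-86705661, minus strand: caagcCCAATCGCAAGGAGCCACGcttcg
Hsp90b1, chr10:86705528-86705556, minus strand: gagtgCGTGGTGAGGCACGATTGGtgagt
Pdia6, chr12:17266486-17266514, plus strand: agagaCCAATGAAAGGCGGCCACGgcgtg
Calr, chr8:84847070-84847098, minus strand: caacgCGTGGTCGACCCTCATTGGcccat
Canx, chr11:50325795-50325823, minus strand: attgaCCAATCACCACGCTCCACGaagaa
Creld2, chr15:88819515-88819543, plus strand: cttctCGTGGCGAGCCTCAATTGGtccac
Dnajc3, chr14:118937822-118937850, plus strand: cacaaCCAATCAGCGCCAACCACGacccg

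ERSE-II was found in 2 genes, Dnajb11 and Herpud1, against 0.0365% of all windows, and CARE in 5 genes against 3.97% of all windows. A CRE was found in 1 gene, Ppp1r15a (1.79% of all windows), and an HSE in 1 gene, Hsph1 (0.603% of all windows). The ERSE-II of Dnajb11 and the CARE matches of Asns, which makes asparagine, of the CHOP-induced Chac1, of the cystine transporter Slc7a11, and of the ATF4 inhibitor Trib3 are given for comparison with Herpud1.
Dnajb11, chr16:22857847-22857867, plus strand: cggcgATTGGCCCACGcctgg
Asns, chr6:7693220-7693237, minus strand: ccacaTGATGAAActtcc
Chac1, chr2:119351044-119351061, plus strand: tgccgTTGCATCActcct
Slc7a11, chr3:50443667-50443684, minus strand: gtggcTGATGCAAacctg
Slc7a11, chr3:50443648-50443665, minus strand: agaatTTGCATCAtcatg
Trib3, chr2:152344034-152344051, minus strand: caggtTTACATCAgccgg

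In the map of motif positions, the CRE of Ppp1r15a lies 12 bases and the CARE of Asns 23 bases before the RefSeq start. A match is a description of the letters in these windows and not a measured binding site.

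**Figure D1:**
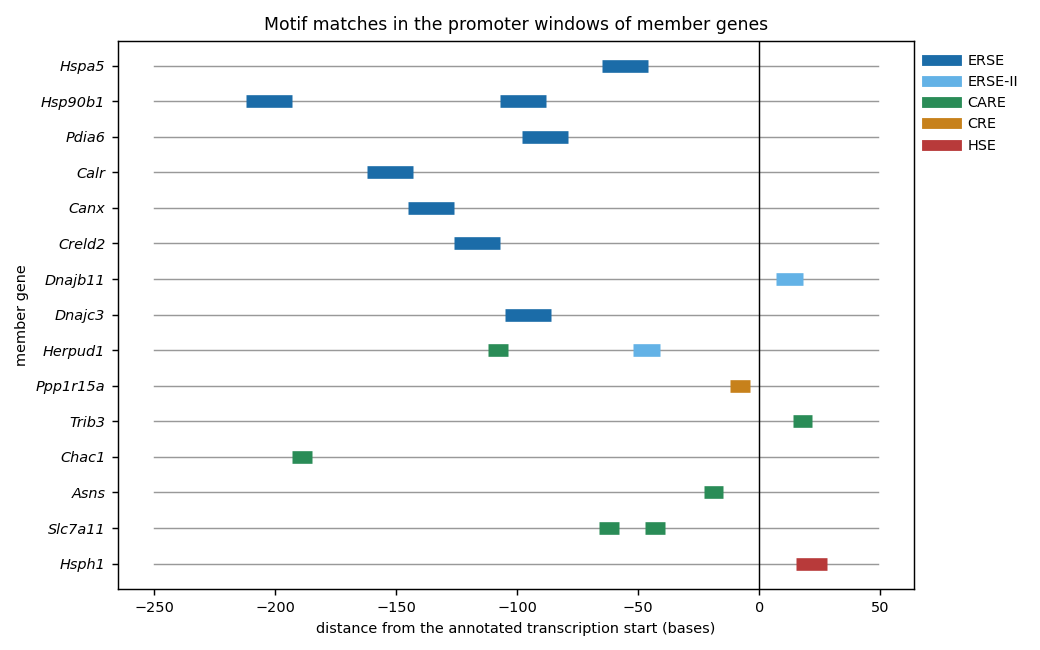
Matches of the 5 motifs (coloured blocks) in the promoter windows of the 15 member genes that had any (rows), plotted by distance from the annotated transcription start in bases (horizontal axis, black line at 0). The ERSE matches begin between 212 and 65 bases before the start, and for Hsph1, with more than 1 annotated start, the window that begins at the lower coordinate is drawn.

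Levels of these genes spanned a wide range. Per kilobase of exon and averaged over the 16 libraries, the cytosolic chaperone Hsp90aa1 was highest with 451 CPM per kb, followed by Hspa5 (209), which encodes the main ER chaperone BiP, and by the constitutive HSP70 gene Hspa8 (203). The lowest were Slc7a11 (0.128 CPM per kb), Sesn2 (0.652), which encodes a stress-induced inhibitor of mTORC1, and Trib3 (1.43). In 31 of the 38 genes every library held more than 3 counts. The other 7 (Trib3, Slc7a11, Sesn2, Hspa1a, Phgdh, Shmt2, and Eif2ak3) had 1 or more libraries at or below 3 counts, so fitted fold changes of these genes are imprecise. The heat map of the 38 genes shows where values deviated together within a treatment and where replicates of 1 group disagreed, as for Pdia4 in WT and Atf6 in both genotypes with CGRP.

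**Figure D2:**
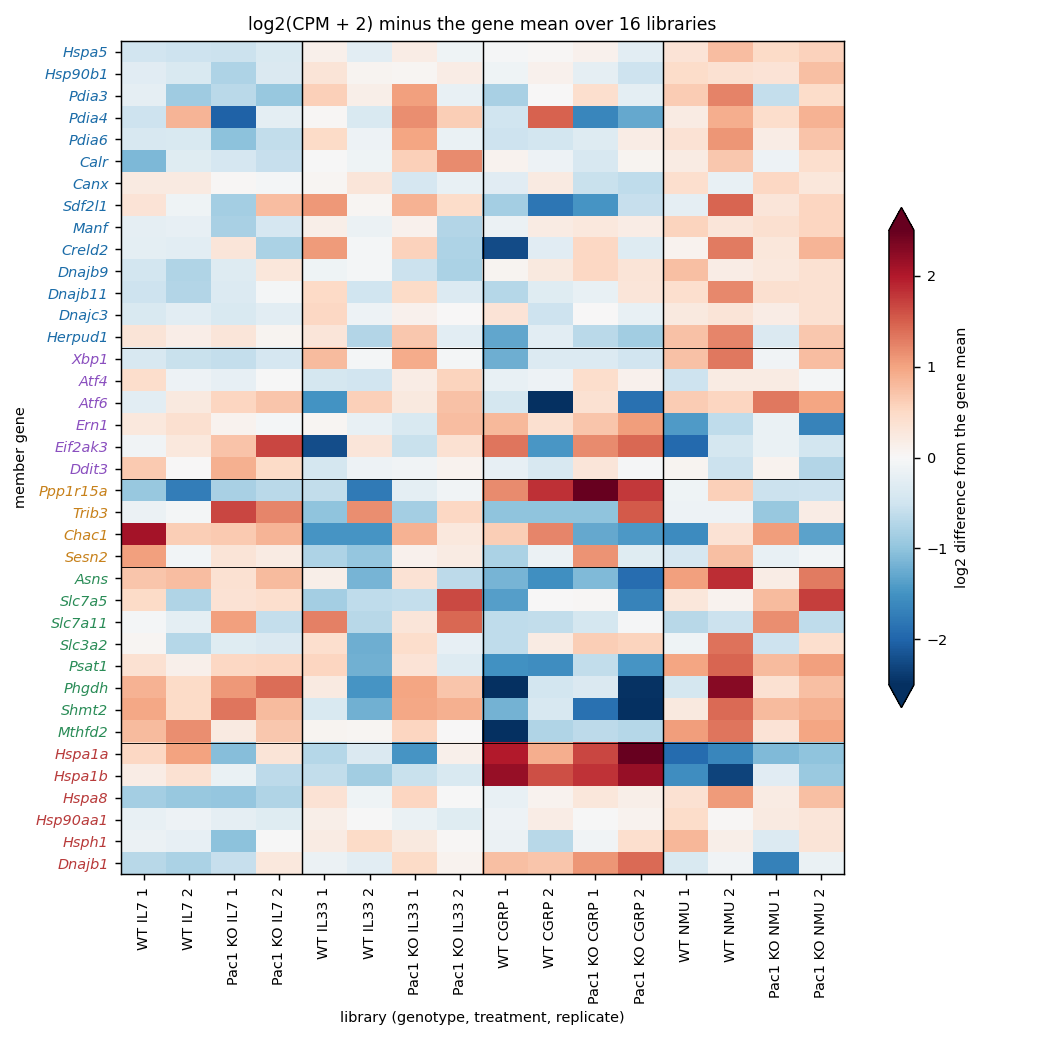
Each row is a member gene, coloured by role in the order of the text, and each column 1 of the 16 libraries, grouped by treatment. The colour gives log2(CPM + 2) minus the gene's mean over all libraries, so red is above and blue below that mean. With CGRP the rows of Ppp1r15a, Hspa1a, Hspa1b, and Dnajb1 are red in all 4 libraries and those of Asns and Psat1 blue in all 4.

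The treatments were compared over both genotypes with edgeR's quasi-likelihood test on 14979 genes, with a cutoff of a fold change above 1.5 and an adjusted P value below 0.05. The 4 treatment comparisons share libraries, so they are not independent of each other. Between CGRP and NMU, 11 of the 38 genes passed (28.9%), against 5.47% of all genes tested: 5 were higher with CGRP (Hspa1b, Ppp1r15a, Hspa1a, Dnajb1, and Ern1, against 2.63% of all genes) and 6 were lower (Psat1, Asns, Xbp1, Shmt2, Hsp90b1, and Herpud1, against 2.84%). Between CGRP and IL-33, 2 genes passed, both higher with CGRP (Ppp1r15a and Hspa1b), which is 5.26% against 2.76% of all genes (1.65% higher and 1.11% lower). Between IL-33 and IL-7 and between NMU and IL-33, 0 of the 38 genes passed, against 0.0334% and 0.187% of all genes. There were 11 and 8 genes at an unadjusted P value below 0.05 in these 2 comparisons, against 9.88% and 6.5% of all genes. DESeq2 called 6 and 3 of the 38 genes in them, against 1.98% and 1.47% of all genes. It called 10 genes between CGRP and IL-33 and 14 between CGRP and NMU, against 8.7% and 12.6% of all genes. In edgeR fits to libraries of a single genotype, with 2 libraries per treatment, 0 genes passed between CGRP and IL-33 in either genotype, and between CGRP and NMU only Hspa1b passed in WT and only Ppp1r15a in Pac1-/- libraries. A fit to the CGRP and NMU libraries alone kept 5 of the 11 genes (Hspa1b, Hspa1a, Ppp1r15a, Psat1, and Asns). Shares of all genes called are not given here for these fits, so their lower counts cannot be read as particular to the 38 genes. With 1 library left out at a time, the log2 fold change between CGRP and IL-33 ranged from -1.60 to -0.70 for Psat1. For Xbp1 it ranged from -1.32 to -0.77. Between NMU and IL-33, that of Asns ranged from 1.06 to 1.82.

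Complete separation of the 4 libraries of one treatment from the 4 of the other was counted as well. It was seen for 9 of the 38 genes higher and 1 lower with IL-33 than with IL-7, against 2.65% and 2.59% of all genes. Between NMU and IL-33 it was seen for 5 higher and 0 lower (2.27% and 2.08% of all genes), and between CGRP and IL-33 for 5 higher and 3 lower (5.82% and 3.89%). Between CGRP and NMU it was seen for 5 higher and 13 lower, against 6.86% and 6.46% of all genes.

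**Figure D3:**
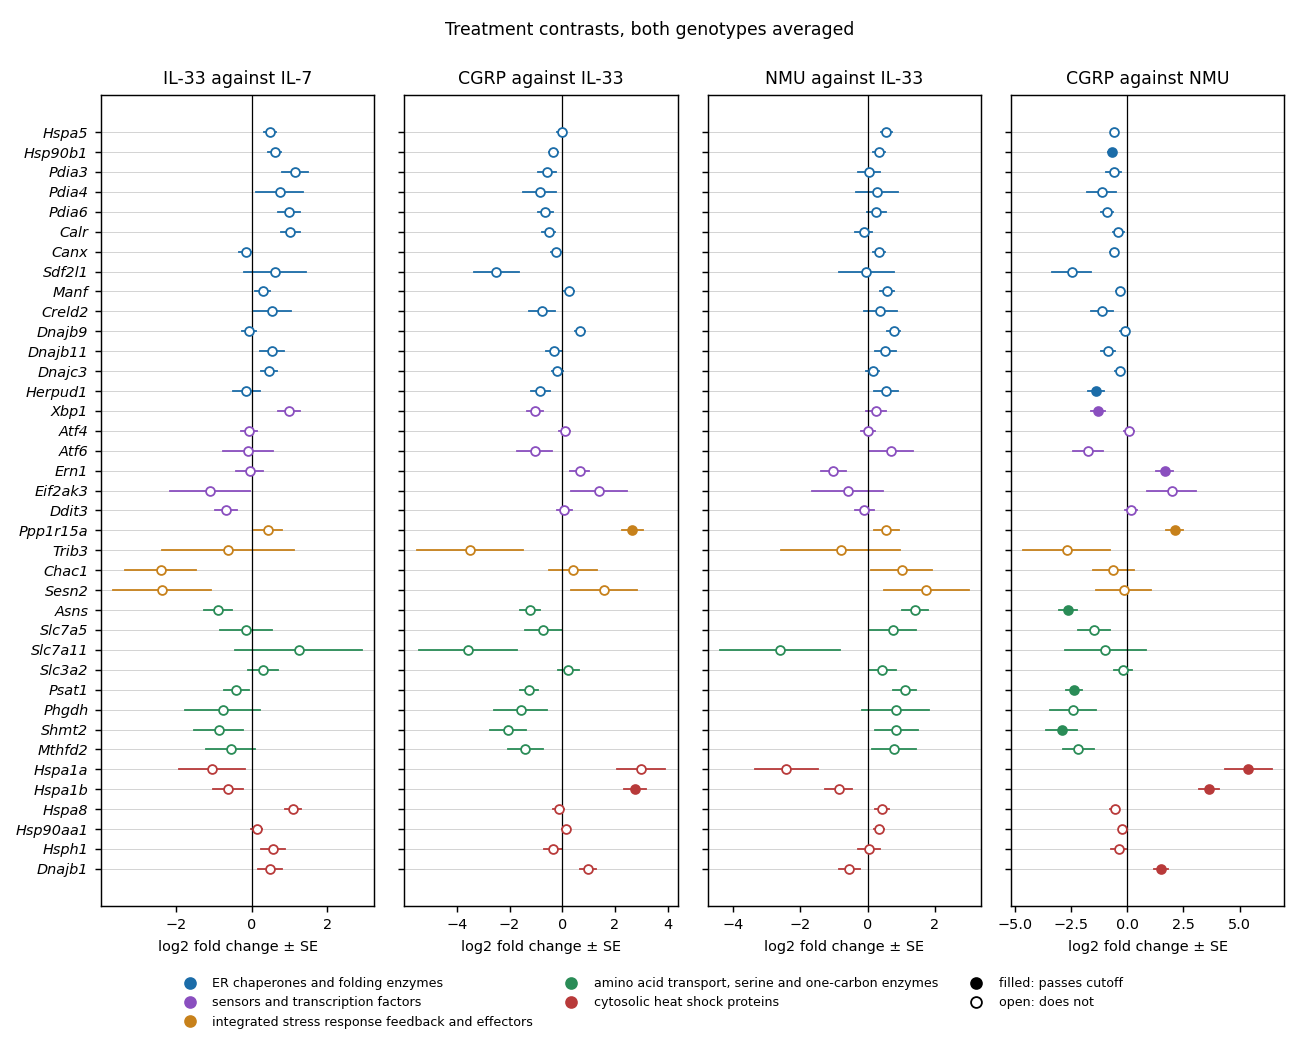
Log2 fold change with its SE (horizontal axes, whose ranges differ between panels) of the 38 member genes (rows, coloured by role) in the 4 treatment comparisons, averaged over WT and Pac1-/- libraries. Filled points passed the cutoff: 0, 2, 0, and 11 genes from left to right.

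Most ER chaperones and folding enzymes had higher values with IL-33 than with IL-7 and higher values with NMU than with CGRP, although only Hsp90b1 and Herpud1, both between CGRP and NMU, passed the cutoff in any treatment comparison. Between IL-33 and IL-7, 11 of 14 had a positive log2 fold change, with a median of 0.54 against 0.08 over all genes tested. Of 4 natural killer and ILC1 markers, Gzma was at 112 to 222 CPM in the IL-7 libraries and at 0 to 4.50 CPM in all others, while Tbx21 was at 0 counts in all 16 libraries and Ncr1 and Eomes did not exceed 2.70 CPM. The 5 T cell markers summed to 84.5 to 114 CPM with IL-7 and to 5.79 to 34.99 CPM in all others, most of it from Cd3d (73.9 to 103 CPM with IL-7), while Cd8a was at 0 counts in all libraries and Cd4 in 15 of 16. The part of these genes in this comparison was not tested. Hspa5 stood at 611 and 595 CPM in the WT and 585 and 650.1 CPM in the Pac1-/- libraries with IL-7 and at 929 and 710.5 CPM in the WT and 967 and 791 CPM in the Pac1-/- libraries with IL-33. With NMU it reached 1075 and 1448 CPM in the WT and 1192 and 1268 CPM in the Pac1-/- libraries, and with CGRP it was at 841 and 866 CPM in the WT and 919 and 709 CPM in the Pac1-/- libraries. The 4 NMU libraries lay above all other libraries and the 4 IL-7 libraries below, while IL-33 and CGRP values overlapped. The log2 fold change of Hspa5 was 0.48 ± 0.16 (SE, adjusted P = 0.394) between IL-33 and IL-7, 0.55 ± 0.16 (SE, adjusted P = 0.34) between NMU and IL-33, and -0.58 ± 0.16 (SE, adjusted P = 0.054) between CGRP and NMU, none of which passed. Between CGRP and NMU, Hspa5 was just outside the cutoff on both the adjusted P value and the fold, which was 1.49.

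Hsp90b1 (chr10:86690209-86705509, minus strand) encodes GRP94, the HSP90 of the ER, and carries 2 ERSE matches. It was at 276 and 257 CPM in the WT and 196 and 259.6 CPM in the Pac1-/- libraries with IL-7 and at 419 and 350.1 CPM in the WT and 345 and 384 CPM in the Pac1-/- libraries with IL-33. With CGRP its values were 309.8 and 364 CPM in the WT and 286 and 233 CPM in the Pac1-/- libraries, and with NMU 459.7 and 439.6 CPM in the WT and 428 and 569.7 CPM in the Pac1-/- libraries. All 4 CGRP libraries were below all 4 NMU libraries, and the log2 fold change was -0.68 ± 0.17 (SE, adjusted P = 0.0343). The call was narrow: the adjusted P value ranged from 0.042 to 0.234 when 1 library was left out, and it stayed below 0.05 only without Pac1-/- IL-33 replicate 1, Pac1-/- IL-33 replicate 2, or Pac1-/- NMU replicate 1.

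Herpud1 (chr8:94386438-94395377, plus strand) encodes an ER membrane protein of ER-associated degradation. Its values were 112 and 101 CPM in the WT and 110.1 and 94.1 CPM in the Pac1-/- libraries with IL-7 and 111 and 52.97 CPM in the WT and 145 and 74.1 CPM in the Pac1-/- libraries with IL-33. They were 35.1 and 73.9 CPM in the WT and 55.2 and 47.8 CPM in the Pac1-/- libraries with CGRP and 149 and 209.8 CPM in the WT and 69.5 and 144 CPM in the Pac1-/- libraries with NMU. Pac1-/- NMU replicate 1 lay below the highest CGRP library, so the treatments overlapped, while the fitted log2 fold change of -1.39 ± 0.35 (SE, adjusted P = 0.0368) between CGRP and NMU passed. It did not pass without WT CGRP replicate 1 (adjusted P = 0.0606), WT NMU replicate 2 (0.0646), or Pac1-/- NMU replicate 2 (0.107).

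Of the 14 chaperones, 6 had IL-33 libraries that did not overlap with, and lay above, the IL-7 libraries. These were Hspa5, Hsp90b1, the co-chaperone Dnajc3, the lectin chaperone Calr, and the disulfide isomerases Pdia3 and Pdia6. Calr (51.2 to 91.2 CPM with IL-7, 105 to 259 CPM with IL-33) had a log2 fold change of 1.02 ± 0.25 (SE, adjusted P = 0.332), Pdia3 of 1.14 ± 0.33 (SE, adjusted P = 0.357), and Pdia6 of 0.98 ± 0.28 (SE, adjusted P = 0.337). All 14 chaperones had a negative log2 fold change between CGRP and NMU, with a median of -0.64 against 0.02 over all genes, and in DESeq2, with its own size factors, all 14 were negative. Within 1 genotype, the number negative was 13 of 14 in WT and 12 of 14 in Pac1-/- libraries. For 6 of the 14, every CGRP library lay below every NMU library (Hspa5, Hsp90b1, Pdia6, Sdf2l1, Manf, and Dnajb11). Of these, Pdia6 had a log2 fold change of -0.91 ± 0.28 (SE, adjusted P = 0.0825) with all libraries, which did not pass. With 1 library left out at a time, that of Pdia6 ranged from -1.06 to -0.70. Between CGRP and IL-33, 12 of 14 were negative (11 in DESeq2), with a median of -0.43, and within 1 genotype 9 were negative in WT and 11 in Pac1-/- libraries. Between NMU and IL-33, 12 of 14 were positive (median 0.34 against -0.08 over all genes), with 13 positive in WT and 8 in Pac1-/- libraries alone. For 4 genes the treatments did not overlap (Hspa5, Hsp90b1, Manf, and Dnajb9). Dnajb9 (ERdj4), a BiP co-chaperone, had with Manf 1 of the 2 positive log2 fold changes between CGRP and IL-33, with 157 to 263 CPM in the IL-33, 288 to 393 CPM in the CGRP, and 310.2 to 459 CPM in the NMU libraries. Its log2 fold change was 0.67 ± 0.19 (SE, adjusted P = 0.0927) between CGRP and IL-33 and -0.11 ± 0.19 (SE, adjusted P = 0.854) between CGRP and NMU. The lectin chaperone Canx (395 to 720.1 CPM with CGRP, 539.7 to 886 CPM with NMU) and the secreted ER protein Manf (441 to 587 CPM with CGRP, 602 to 723 CPM with NMU) were the most abundant members of this role after Hspa5 by length-scaled level. The Manf locus overlaps Dcaf1 on the opposite strand by 146 exonic bases, and the use of strand in counting is not given in the sources used here. Of the rest, Creld2 and Dnajb11 ranged from 14.9 to 195 CPM and from 36.5 to 145 CPM over all libraries, Pdia4 from 2.53 to 49.4 CPM, and Sdf2l1 from 0.548 to 22.6 CPM. Sdf2l1, part of the BiP complex, was lower in all 4 CGRP libraries (0.548 to 4.01 CPM) than in all 4 IL-33 libraries (7.21 to 16.9 CPM), with a log2 fold change of -2.51 ± 0.86 (SE, adjusted P = 0.156) that did not pass.

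Of the 6 sensors and transcription factors, Xbp1 was lower and Ern1 higher with CGRP than with NMU, and the other 4 did not pass in any comparison. Xbp1 (chr11:5520659-5525893, plus strand) encodes the transcription factor activated by IRE1 splicing, which gene-level counts do not measure. Its values were 189 and 169 CPM in the WT and 164 and 186 CPM in the Pac1-/- libraries with IL-7, and 436 and 240.3 CPM in the WT and 479.7 and 243 CPM in the Pac1-/- libraries with IL-33. They were 106 and 196 CPM in the WT and 198 and 178 CPM in the Pac1-/- libraries with CGRP, and 414 and 629 CPM in the WT and 235 and 430.4 CPM in the Pac1-/- libraries with NMU. The CGRP libraries lay below all IL-33 and NMU libraries and overlapped with those of IL-7. Between CGRP and NMU, the log2 fold change of Xbp1 was -1.31 ± 0.30 (SE, adjusted P = 0.0238), which passed. Between CGRP and IL-33 the log2 fold change was -1.06 ± 0.30 (SE, adjusted P = 0.0897) and between IL-33 and IL-7 0.98 ± 0.30 (SE, adjusted P = 0.381), and neither passed.

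Ern1 (chr11:106394650-106487852, minus strand), which encodes the sensor IRE1, had the opposite direction. Its values were 73.8 and 80.8 CPM in the WT and 64.6 and 58.8 CPM in the Pac1-/- libraries with IL-7 and 62.9 and 53.1 CPM in the WT and 46.5 and 105 CPM in the Pac1-/- libraries with IL-33. With CGRP they were 109 and 80.7 CPM in the WT and 99.7 and 129 CPM in the Pac1-/- libraries, and with NMU 21.6 and 38.3 CPM in the WT and 53.9 and 17.8 CPM in the Pac1-/- libraries. All 4 CGRP libraries were above all 4 NMU libraries, and Ern1 was higher with CGRP by 1.67 ± 0.38 (SE, adjusted P = 0.0216) on the log2 scale. Without WT NMU replicate 1 or Pac1-/- NMU replicate 2, the adjusted P value was 0.0524 or 0.0579. Atf6, the sensor released by proteolysis, was at 24.7 and 36.1 CPM in the WT and 44.9 and 50.2 CPM in the Pac1-/- libraries with IL-7 and at 9.52 and 46.96 CPM in the WT and 36.04 and 51.5 CPM in the Pac1-/- libraries with IL-33. It was at 21.8 and 2.52 CPM in the WT and 40.2 and 6.85 CPM in the Pac1-/- libraries with CGRP and at 47.9 and 44.9 CPM in the WT and 78.5 and 61.5 CPM in the Pac1-/- libraries with NMU, so replicates with CGRP differed widely while every CGRP library lay below every NMU library (-1.75 ± 0.68, SE, adjusted P = 0.173 on the log2 scale). Eif2ak3 (PERK) was at 7.47 and 9.9996 CPM in the WT and 14.3 and 29.9 CPM in the Pac1-/- libraries with IL-7 and at 0.149 and 10.3 CPM in the WT and 4.84 and 11.1 CPM in the Pac1-/- libraries with IL-33. With CGRP it was at 23.2 and 1.65 CPM in the WT and 20.8 and 25.1 CPM in the Pac1-/- libraries, and with NMU at 0.616 and 5.35 CPM in the WT and 6.88 and 5.31 CPM in the Pac1-/- libraries, so WT CGRP replicate 2 fell within the range of the NMU libraries. The mRNA of Atf4 (193 to 398 CPM with IL-33, 235 to 365 CPM with CGRP, 187 to 310.1 CPM with NMU) and that of Ddit3 (CHOP, 46.95 to 68.3 CPM, 48.4 to 80.2 CPM, and 38.3 to 68.5 CPM) overlapped between these treatments. Their log2 fold changes between CGRP and NMU were 0.08 and 0.17, with SEs of 0.21 and 0.28. Ddit3 overlaps Mars on the opposite strand by 68 exonic bases.

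Ppp1r15a (chr7:45522916-45526268, minus strand) encodes GADD34, the phosphatase subunit that removes the phosphate from eIF2α and so ends the integrated stress response. It was at 16.7 and 8.81 CPM in the WT and 18.7 and 20.4 CPM in the Pac1-/- libraries with IL-7, and at 21.4 and 8.51 CPM in the WT and 28.2 and 31.96 CPM in the Pac1-/- libraries with IL-33. With CGRP it stood at 79.4 and 126 CPM in the WT and 229.6 and 121 CPM in the Pac1-/- libraries, and with NMU at 31.6 and 52.7 CPM in the WT and 22.8 and 23.1 CPM in the Pac1-/- libraries. The lowest CGRP library lay above every library of the other treatments. Ppp1r15a was higher with CGRP than with IL-33 by 2.66 ± 0.39 (SE, adjusted P = 0.00284) on the log2 scale, a 6.32-fold difference, and higher than with NMU by 2.11 ± 0.38 (SE, adjusted P = 0.00648). It passed both comparisons whichever library was left out. The other effectors, Trib3, Chac1 (glutathione degradation), and Sesn2, did not pass in any comparison. They ranged from 0 to 10.9, from 0.616 to 30.9, and from 0 to 6.50 CPM over the 16 libraries, and replicates of 1 group differed widely, as for Trib3 with 0 and 9.70 CPM in the Pac1-/- CGRP libraries.

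Of the 8 genes of amino acid transport and metabolism, Asns, Psat1, and Shmt2 were lower with CGRP than with NMU. Asns (chr6:7675169-7693254, minus strand) encodes asparagine synthetase, a standard ATF4 target. Its values were 156 and 165 CPM in the WT and 125 and 168 CPM in the Pac1-/- libraries with IL-7, and 107 and 41.6 CPM in the WT and 123 and 59.9 CPM in the Pac1-/- libraries with IL-33. They were 41.6 and 31.9 CPM in the WT and 43.6 and 24.2 CPM in the Pac1-/- libraries with CGRP, and 197 and 351 CPM in the WT and 109.7 and 240.2 CPM in the Pac1-/- libraries with NMU. The CGRP libraries lay below all NMU and all IL-7 libraries, and the log2 fold change between CGRP and NMU was -2.63 ± 0.40 (SE, adjusted P = 0.00179), which passed. Against IL-33, the log2 fold change was -1.22 ± 0.38 (SE, adjusted P = 0.117) with CGRP and 1.41 ± 0.38 (SE, adjusted P = 0.282) with NMU, and neither passed.

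Psat1 (chr19:15904678-15947337, minus strand) encodes a transaminase of serine synthesis. Its values were 223 and 187 CPM in the WT and 246 and 248 CPM in the Pac1-/- libraries with IL-7 and 250.1 and 72.8 CPM in the WT and 218 and 136 CPM in the Pac1-/- libraries with IL-33. They were 58.9 and 57.1 CPM in the WT and 110.4 and 60.5 CPM in the Pac1-/- libraries with CGRP and 339 and 470.2 CPM in the WT and 299 and 349.9 CPM in the Pac1-/- libraries with NMU. Here too the CGRP libraries lay below all NMU and IL-7 libraries, with 1 IL-33 library (WT replicate 2) in their range. The log2 fold change of Psat1 was -2.36 ± 0.35 (SE, adjusted P = 0.00152) between CGRP and NMU, which passed, and the comparison with IL-33 gave -1.26 ± 0.33 (SE, adjusted P = 0.0642), which did not pass.

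Shmt2 (chr10:127517123-127522444, minus strand) encodes the mitochondrial enzyme that passes a carbon from serine to folate. It was at 53.1 and 37.5 CPM in the WT and 69.002 and 47.2 CPM in the Pac1-/- libraries with IL-7 and at 19.7 and 10.3 CPM in the WT and 53.3 and 50.1 CPM in the Pac1-/- libraries with IL-33. With CGRP it was at 10.5 and 19.3 CPM in the WT and 5.79 and 0.129 CPM in the Pac1-/- libraries, and with NMU at 31.4 and 73.3 CPM in the WT and 47.03 and 50.2 CPM in the Pac1-/- libraries. All CGRP libraries were below all NMU libraries, and the log2 fold change was -2.91 ± 0.69 (SE, adjusted P = 0.0269) with Pac1-/- CGRP replicate 2 at 1 count. Without Pac1-/- CGRP replicate 1, it was -5.13. Mthfd2, the next enzyme of the mitochondrial folate pathway, did not pass in any comparison with all libraries. Its range was 1.16 to 66.7 CPM with CGRP, 106 to 156 CPM with IL-33, 124 to 241 CPM with IL-7, and 135 to 269 CPM with NMU (-2.19 ± 0.69, SE, adjusted P = 0.0876 on the log2 scale between CGRP and NMU). Mthfd2 passed between CGRP and NMU in all 16 fits that left out 1 library, in which more genes were tested, with adjusted P values of up to 0.0408. Its log2 fold change was -4.56 without WT CGRP replicate 2 and -1.72 without WT CGRP replicate 1. DESeq2 gave an adjusted P value of 0.0355. Phgdh, the first enzyme of serine synthesis, ranged from 0 to 21.4 CPM with CGRP and from 20.2 to 144 CPM with NMU, and these ranges overlapped, with a call in 4 of the 16 fits that left out 1 library.

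The 3 amino acid transporter genes did not pass. Slc7a5, the leucine transporter LAT1, was lower in all 4 CGRP libraries (2.85 to 13.9 CPM) than in the 4 NMU libraries (14.5 to 49.4 CPM), but did not pass (-1.48 ± 0.70, SE, adjusted P = 0.259 on the log2 scale). Its partner Slc3a2 overlapped between these treatments (169 to 401 CPM and 183 to 672 CPM), and Slc7a11 was at or below 3 counts in 7 of 16 libraries. Some reads of Slc3a2 and Slc7a11 are uncertain, since stretches of their exons were near-identical to 143 and 9 other genes. These stretches were at most 182 and 375 bases long, within 3529 and 13922 exonic bases. Longer near-identical stretches were also found for Phgdh (14 genes, up to 1608 bases), Hspa8 (6 genes, up to 1947), and Hsp90aa1 (3 genes, up to 2255). Counts of those other genes came to 6.11%, 1.4%, and 3.89% of the counts of Phgdh, Hspa8, and Hsp90aa1. Over the 8 genes of amino acid transport and metabolism, all log2 fold changes between CGRP and NMU were negative, with a median of -2.28. Of these 8, 5 did not overlap between the treatments (Asns, Psat1, Shmt2, Mthfd2, and Slc7a5). In DESeq2, all 8 were negative as well. Between CGRP and IL-33, 7 of 8 were negative with a median of -1.33, and between NMU and IL-33, 7 of 8 were positive with a median of 0.81. In Pac1-/- libraries alone, however, 4 of 8 were positive between NMU and IL-33 and in WT libraries alone 7 of 8. The test of the difference between genotypes in the response to NMU called 0 of these 8 genes. The WT NMU libraries are those with epithelial and macrophage markers, whose part in these values was not tested.

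**Figure D4:**
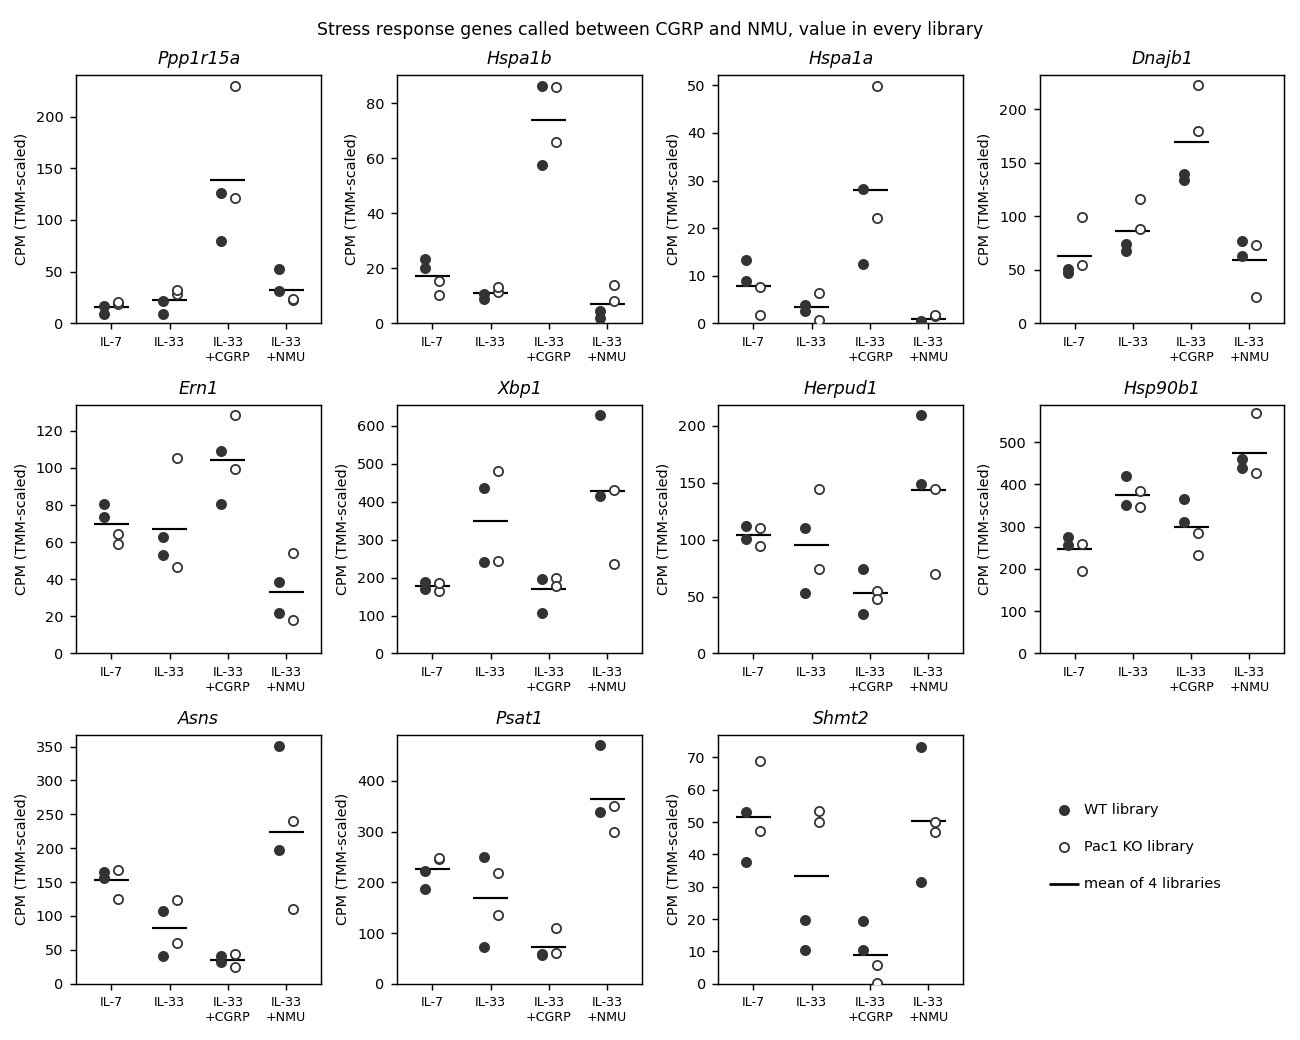
Value in CPM (vertical axes from 0) of the 11 genes that passed between CGRP and NMU, in each library of the 4 treatments. Filled points are WT, open points Pac1-/- libraries, and bars the mean of 4 libraries. Only for Herpud1 does a CGRP point lie above an NMU point against the direction of the call.

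Among cytosolic heat shock genes, the inducible HSP70 genes and their co-chaperone were high with CGRP, while Hspa8, Hsp90aa1, and Hsph1 did not pass in any comparison. Hspa1b (chr17:34956436-34959238, minus strand) was at 20.3 and 23.5 CPM in the WT and 15.3 and 10.3 CPM in the Pac1-/- libraries with IL-7 and at 10.7 and 8.71 CPM in the WT and 11.2 and 13.05 CPM in the Pac1-/- libraries with IL-33. With CGRP it was at 86.2 and 57.5 CPM in the WT and 66.1 and 85.9 CPM in the Pac1-/- libraries, and with NMU at 4.62 and 1.89 CPM in the WT and 14.1 and 8.19 CPM in the Pac1-/- libraries. Every CGRP library lay above every other library. Hspa1b was higher with CGRP than with IL-33 by 2.77 ± 0.42 (SE, adjusted P = 0.00362) and than with NMU by 3.62 ± 0.44 (SE, adjusted P = 0.000493) on the log2 scale, and it passed whichever library was left out. Hspa1a (chr17:34969190-34972156, minus strand), its neighbouring copy, was at 8.87 and 13.3 CPM in the WT and 1.66 and 7.53 CPM in the Pac1-/- libraries with IL-7 and at 2.68 and 3.90 CPM in the WT and 0.74 and 6.36 CPM in the Pac1-/- libraries with IL-33. It was at 28.1 and 12.4 CPM in the WT and 22.1 and 49.8 CPM in the Pac1-/- libraries with CGRP and at 0 and 0.446 CPM in the WT and 1.53 and 1.80 CPM in the Pac1-/- libraries with NMU. CGRP libraries were again above all IL-33 and NMU libraries, although WT CGRP replicate 2 was below WT IL-7 replicate 2. The log2 fold change was 5.39 ± 1.05 (SE, adjusted P = 0.00996) between CGRP and NMU and 2.98 ± 0.92 (SE, adjusted P = 0.116) between CGRP and IL-33, and only the former passed. Without WT NMU replicate 2, the former was 7.63, with WT NMU replicate 1 at 0 counts. Because the transcripts of the 2 genes were 99.2% identical over 2201 bases, the split of reads between them is uncertain. Their summed level was 16.9 to 36.8 CPM with IL-7, 11.96 to 19.4 CPM with IL-33, 69.9 to 136 CPM with CGRP, and 2.34 to 15.6 CPM with NMU.

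Dnajb1 (chr8:83608193-83612653, plus strand) encodes HSP40, the inducible co-chaperone of HSP70. It was at 50.5 and 46.6 CPM in the WT and 54.96 and 99.3 CPM in the Pac1-/- libraries with IL-7, and at 73.9 and 67.9 CPM in the WT and 116 and 87.8 CPM in the Pac1-/- libraries with IL-33. With CGRP it was at 139.8 and 134 CPM in the WT and 180.3 and 223 CPM in the Pac1-/- libraries, and with NMU at 62.7 and 77.3 CPM in the WT and 24.3 and 73.2 CPM in the Pac1-/- libraries. All CGRP libraries were above all other libraries, and Dnajb1 was higher with CGRP than with NMU by 1.51 ± 0.32 (SE, adjusted P = 0.0156) on the log2 scale. The comparison with IL-33 gave 0.97 ± 0.32 (SE, adjusted P = 0.139) and did not pass. Hsp90aa1 (1611 to 1994 CPM with CGRP, 1789 to 2418 CPM with NMU) and the HSP110 gene Hsph1 (30.2 to 66.7 CPM and 38.6 to 89.3 CPM) overlapped between the neuropeptides. Hspa8 was lower with IL-7 (446 and 416 CPM in the WT and 413 and 475 CPM in the Pac1-/- libraries) than in every library of the other treatments. With IL-33 its values were 1036 and 745 CPM in the WT and 1161 and 803 CPM in the Pac1-/- libraries. The log2 fold change between IL-33 and IL-7 was 1.10 ± 0.21 (SE, adjusted P = 0.137), the smallest adjusted P value of the 38 genes in this comparison. It missed the cutoff with all libraries. With 1 library left out at a time, the log2 fold change ranged from 0.93 to 1.22. More genes were tested in those fits, also where the library left out was a CGRP or NMU library, so their calls are not comparable.

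Other genes of the same pathways were counted from lists of each pathway. Of 28 other unfolded protein response and ER degradation genes tested, 0 were higher and 2 lower with CGRP than with NMU (7.14%, against 5.47% of all genes), with a median log2 fold change of -0.42. The 2 were Ero1l, the ER oxidase that recharges disulfide isomerases (-0.92 ± 0.21, SE, adjusted P = 0.0209), and the transcription factor gene Creb3 (-1.23 ± 0.32, SE, adjusted P = 0.0406). Of 32 other integrated stress response genes and ATF4 targets, 1 was higher and 9 were lower (31.25% in all). The smallest adjusted P values were those of the asparaginyl-tRNA synthetase gene Nars (-1.64 ± 0.20, SE, adjusted P = 0.000398), of the translation inhibitor gene Eif4ebp1 (-1.87 ± 0.22, SE, adjusted P = 0.000398), and of the stress-induced transcription factor gene Atf3 (2.74 ± 0.35, SE, adjusted P = 0.000612). Nars ranged over 177 to 345 CPM with CGRP and 717 to 964 CPM with NMU, and Atf3 over 162 to 498 CPM with CGRP and 28.97 to 48.1 CPM with NMU. Atf3 was the 1 gene of that list that was higher with CGRP. Of 25 other heat shock genes, 3 were higher and 4 lower (28% in all). They included the mitochondrial chaperonin gene Hspe1 (-1.55 ± 0.22, SE, adjusted P = 0.00111), the polyubiquitin gene Ubb (1.36 ± 0.21, SE, adjusted P = 0.00197), and the HSP70 gene Hspa2 (4.36 ± 0.68, SE, adjusted P = 0.00233).

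Between CGRP and IL-33, the calls in these lists were 0 higher and 1 lower (Creb3, -1.34 ± 0.32, SE, adjusted P = 0.0417), 1 higher and 3 lower, and 2 higher and 0 lower, which is 3.57%, 12.5%, and 8% of the lists against 2.76% of all genes. Atf3 rose (3.26 ± 0.35, SE, adjusted P = 0.00027), and Nars fell (-1.02 ± 0.19, SE, adjusted P = 0.0131). The neutral amino acid transporter gene Slc1a4 was at 0 in 3 of 4 CGRP libraries and at 2.01 to 10.5 CPM in the IL-33 libraries, and it was called lower. Ubb (1.45 ± 0.21, SE, adjusted P = 0.00234) and Hspa2 (4.18 ± 0.67, SE, adjusted P = 0.00532) were the higher heat shock genes. In the other 10 comparisons, 0 genes of the lists passed in edgeR's test, with 3, 6, and 4 (unfolded protein response, integrated stress response, and heat shock) at an unadjusted P value below 0.05 between IL-33 and IL-7, and 3, 7, and 5 between NMU and IL-33. Over all genes, 9.88% and 6.5% were at such P values in these comparisons. With CGRP, the study reports Atf3 as higher in Pac1-/- than in WT ILC2s, using DESeq2 at the same cutoff. Raw counts of Atf3 with CGRP were 1824 and 1689 in the WT and 4909 and 1869 in the Pac1-/- libraries. Total counts were 12366516 and 9754660 in these WT libraries and 10219815 and 8333920 in these Pac1-/- libraries. The edgeR test between genotypes with CGRP did not call Atf3. DESeq2 results for these lists are not given here.

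Genotype made no called difference in these genes. Between Pac1-/- and WT libraries, 0 of the 38 genes passed, either over the mean of the 4 treatments or within any of them, in edgeR or DESeq2. The shares of all genes called by edgeR were 0.113% over the mean, 0.00668% with IL-7, 0.00668% with IL-33, 0.107% with CGRP, and 0.02% with NMU. At an unadjusted P value below 0.05 there were 0 of the 38 genes over the mean, 1 with IL-7, 3 with IL-33, 5 with CGRP, and 1 with NMU, against 6.77%, 4.45%, 3.69%, 7.8%, and 3.29% of all genes. Positive log2 fold changes (Pac1-/- against WT) were seen for 19 of the 38 genes with IL-7, 29 with IL-33, 27 with CGRP, and 15 with NMU. Over all 14979 genes tested, these numbers were 7045, 7646, 7825, and 7825. The medians of the 38 genes were -0.01, 0.29, 0.39, and -0.20. Genes measured in the same libraries are not independent, so these counts are a description only. With IL-33, Atf4 was at 198 and 193 CPM in the WT and 306 and 398 CPM in the Pac1-/- libraries, a log2 fold change of 0.85 ± 0.29 (SE, adjusted P = 0.95). With CGRP, the disulfide isomerase gene Pdia4 was at 10.95 and 49.4 CPM in the WT and 3.96 and 5.56 CPM in the Pac1-/- libraries, a log2 fold change of -2.66 ± 0.94 (SE, adjusted P = 0.519). Chac1 was higher in Pac1-/- libraries with IL-33 (0.818 and 0.801 CPM in the WT and 12.2 and 7.42 CPM in the Pac1-/- libraries) and lower with CGRP (9.97 and 16.1 CPM in the WT and 1.22 and 0.905 CPM in the Pac1-/- libraries). The lower groups held only 7 to 12 counts per library, and Chac1 was picked here after its values were seen. The difference between genotypes in the response to IL-33, CGRP, or NMU was called for 0 of the 38 genes and for 0% of all genes in each case by edgeR, with 3, 6, and 2 members at an unadjusted P value below 0.05, against 4.85%, 6.04%, and 5.43% of all genes. DESeq2 called 1 member, Chac1, for the response to CGRP, against 0.875% of all genes. For Phgdh, Mthfd2, and Shmt2, calls between the genotypes depended on which CGRP library was left out. WT CGRP replicate 1 held 0 counts of Phgdh and 13 of Mthfd2, against 181 and 563 in WT CGRP replicate 2. Shmt2 was at 57 counts in Pac1-/- CGRP replicate 1 and at 1 count in replicate 2. B cell markers separated the Pac1-/- from the WT CGRP libraries, and their part in these values was not tested. With 2 libraries per group, SEs within a treatment included 0.27 for Dnajb9 with IL-7 and 0.94 for Pdia4 with CGRP. Fold changes well above their SEs, such as those of Pdia4 and Atf4 above, did not pass. The absence of calls therefore does not show that genotype differences were absent.

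**Figure D5:**
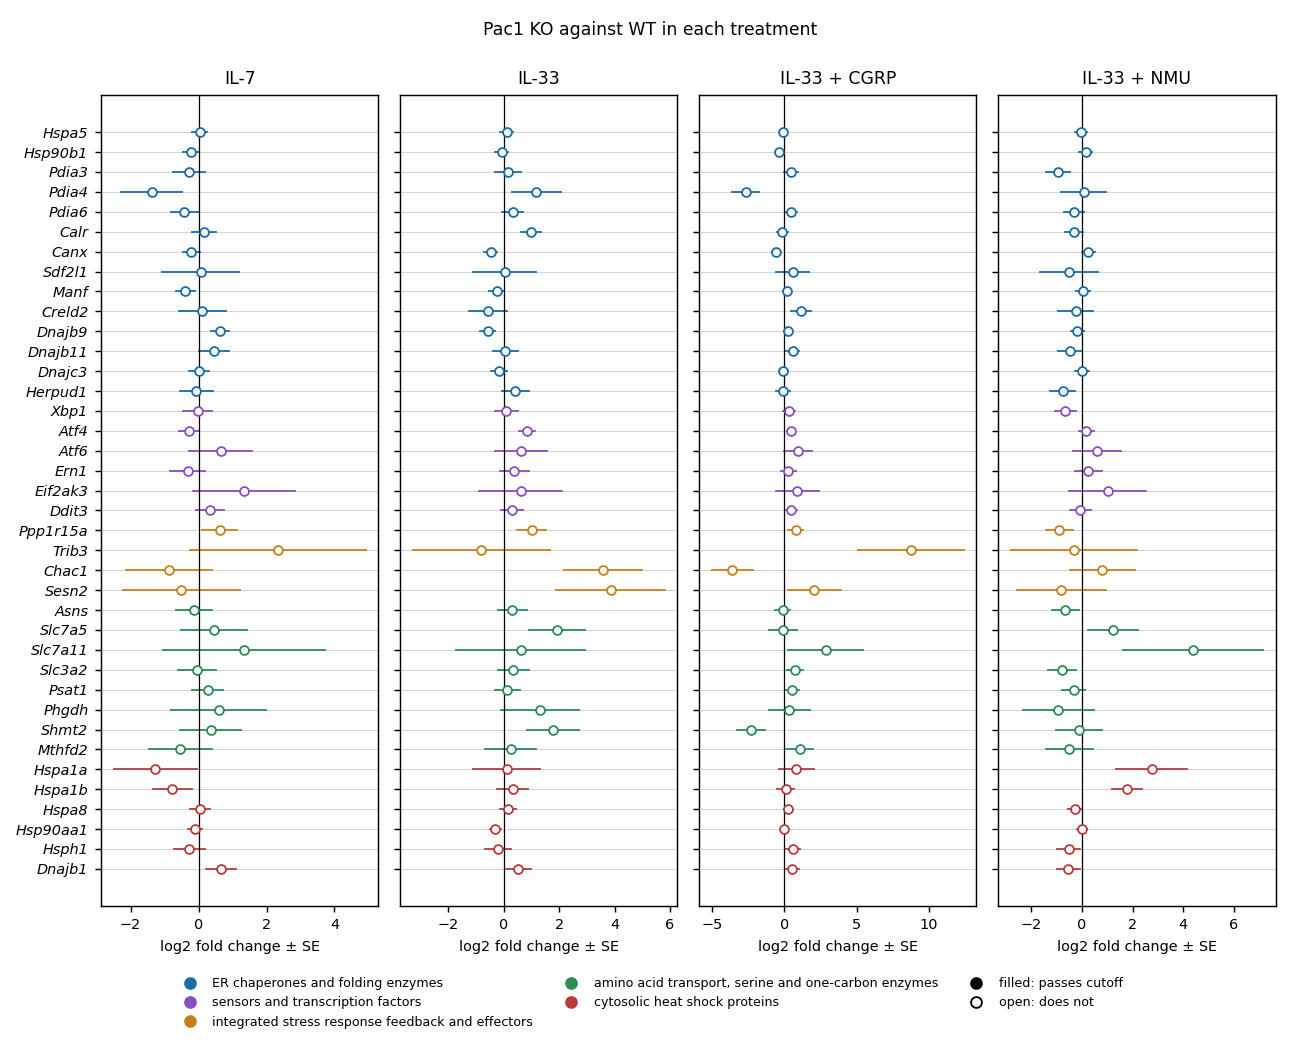
Log2 fold change of Pac1-/- against WT with its SE (horizontal axes, whose ranges differ between panels) for the 38 member genes (rows, coloured by role) in each treatment. All points are open, since none passed the cutoff, and the widest bars belong to low genes such as Trib3 and Slc7a11.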

How the data were processed

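Bulk mRNA-Seq was analysed from 16 libraries of sorted mouse lung ILC2s, 2 for each of 2 genotypes and 4 treatments, grouped by their labels. The authors sorted the cells, which the methods give as over 90% pure, amplified full-length cDNA, aligned paired-end reads with HISAT2 to mm10 (GRCm38), and deposited raw read counts per gene. The counting tool, annotation, use of strand, and treatment of duplicate reads are not given in the sources used here. The deposited counts carried Ensembl IDs, of which 51719 of 51912 were named with the GENCODE M21 annotation of the same build.

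The counts were fitted with edgeR 4.0.16 (TMM factors, filterByExpr, quasi-likelihood test, 8 group means, 8 residual degrees of freedom), and P values were adjusted by Benjamini-Hochberg over 14979 genes. Genes passed at a fold above 1.5 and an adjusted P value below 0.05, and SEs were taken as the log2 fold change divided by the root of the F statistic. By rule, values per library are given for member genes that passed in any comparison and for the sensors Atf6, Ern1, and Eif2ak3, other members are given by ranges, and at most 3 called genes are named per other list. The values per library of Hspa5, Hspa8, Atf4, Pdia4, Chac1, and Trib3 were chosen after they were seen. The fit was tested on simulated counts. Replicates of a group correlated at 0.78 to 0.89 and none were duplicates. Total counts of 6764992 to 15963357 per library set the floors, which cover counting error only, while SEs also include the spread between libraries. Alternatives were DESeq2 1.42.0, its size factors in edgeR, other filters, a fit to the compared groups alone, a replicate block, leaving out each library, and, chosen after seeing the data, fits to 1 genotype. Near-identical transcripts were sought with BLAST 2.17.0 (at least 95% identity over 100 bases). The member genes and all lists were chosen with earlier results of these data known. Proteins were not analysed here.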

Additional observations from a re-analysis of the deposited data

Results flagged for a closer look

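Groups of 4 libraries of 1 treatment were examined for the genes that passed and for Atf6 and Eif2ak3. In 2 of these 52 groups, 1 library stood far from the others, where chance alone marks about 1 in 20 groups. Psat1 with CGRP was highest in Pac1-/- replicate 1 at 110.4 CPM, against 57.1 to 60.5 CPM in the other 3 libraries, so the gap took 0.937 of the range. It still lay below every NMU library. Dnajb1 with IL-7 was highest in Pac1-/- replicate 2 at 99.3 CPM, against 46.6 to 54.96 CPM in the others, a gap of 0.841 of the range, and it lay below every CGRP library.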

How the results depend on the processing

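The number of the 38 genes that passed depended on the method. With DESeq2, 6 passed between IL-33 and IL-7 (0 with edgeR), 10 between CGRP and IL-33 (2 with edgeR), 3 between NMU and IL-33 (0 with edgeR), and 1 for the genotype difference in the response to CGRP (0 with edgeR). Without a filter on low counts, these numbers were 4, 8, 2, and 1, and with at least 10 counts in every library 1 and 6 passed in the first and second comparison. A fit to the compared groups alone lowered the 11 genes between CGRP and NMU to 5, and fits to WT or Pac1-/- libraries alone to 1 each, with 0 and 0 between CGRP and IL-33. Leaving out 1 library gave 0 to 2 genes between IL-33 and IL-7, 2 to 8 between CGRP and IL-33, 0 to 2 between NMU and IL-33, 9 to 13 between CGRP and NMU, 0 to 2 for Pac1-/- against WT over the mean and with CGRP, 0 to 1 for the genotype difference in the response to CGRP, and 0 to 0 in the other comparisons. The largest genotype counts came without WT CGRP replicate 2 (Phgdh and Mthfd2), where the remaining WT CGRP library held 0 and 13 counts of these genes. With 1 library left in a group, the filter kept 18213 to 18846 genes, against 14979 with all libraries. For refits other than DESeq2, the share of all genes called is not given here. Changes in the number of the 38 genes that passed therefore cannot be read as particular to them. Ppp1r15a between NMU and IL-33 reversed to -0.39 (log2) in Pac1-/- libraries alone, and the cause was not tested. Of 1219 refitted values of single genes, 1042 kept their direction and side of the threshold, 127 newly passed, 49 no longer passed, and 1 reversed. Over all genes, 5 passed between IL-33 and IL-7, 413 between CGRP and IL-33, 28 between NMU and IL-33, and 820 between CGRP and NMU, against 296, 1303, 220, and 1886 with DESeq2. Same-numbered replicates did not deviate together (correlations of -0.064 to 0.039). With the wide spread between replicates, this cannot show whether equal numbers mark paired samples. With the replicate number as a block, 11 genes passed between CGRP and NMU and 2 between CGRP and IL-33, as without it, and 0 in the other comparisons. About 500 cells and 2 libraries per group limit all values.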
